A study of Mus musculus with 16 samples.

Results

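Mouse mitochondrial DNA encodes 13 proteins of the respiratory chain and the ATP synthase, and 10 of their genes, among the 45777 genes of the deposited table, are described here. They were taken by gene identifier: ND1 (17716), ND2 (17717), ND4 (17719), ND5 (17721) and ND6 (17722) of complex I, CYTB (17711) of complex III, COX1 (17708), COX2 (17709) and COX3 (17710) of complex IV, and ATP6 (17705) of the ATP synthase, complex V. The 10 were selected on their read counts in the 4 groups of these same tumors. Their own differences between groups are therefore descriptions with no p-value. Where the text counts how many of the 10 an all-gene fit called, that count describes the same selected values and supports nothing, and tests that bear on a result are given only for other genes.

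The tumors grew from B16F10 cells, a melanoma line of C57BL/6 origin, injected under the skin of 6-week-old hosts. Lean hosts were C57BL/6J mice, and obese hosts were C57BL/6J-ob/ob mice, which lack leptin. Each kind of host gave 4 tumors taken pre-therapy and 4 taken post chemotherapy with etoposide (ETS), a topoisomerase II poison given into the peritoneum at 20 mg/kg in 5 daily injections, with collection a day after the course. All 16 tumors thus share 1 transplanted line. The sample titles read ctrl for the untreated tumors, which the study calls pre-chemotherapy, and its methods give no day of their collection. Pre- and post-chemotherapy tumors may therefore also differ in time of growth, which cannot be told apart from the drug. Messenger RNA was sequenced from whole tumors, and in such bulk samples fewer cells of a type and less RNA per cell cannot be told apart.

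The respiratory chain passes electrons from complexes I and II through complex III to complex IV, and complex V uses the proton gradient they build to make ATP. Complex II is wholly nuclear-encoded, whereas the others join a hydrophobic core made inside the organelle to many subunits imported from the cytosol. Mitochondrial DNA is transcribed from both strands into long precursors, and most messengers are freed by cutting out the tRNAs between them. Messenger levels depend on the number of genome copies, on transcription and on the stability of each messenger.

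On the mm10 build (GRCm38.p6), 9 of the 10 genes lie on the plus strand of the mitochondrial chromosome and ND6 alone on the minus strand, each as a single exon without introns. In order along the chromosome, ND1 lies at chrMT:2751-3707, ND2 at chrMT:3914-4951, COX1 at chrMT:5328-6872, COX2 at chrMT:7013-7696, ATP6 at chrMT:7927-8607, COX3 at chrMT:8607-9390, ND4 at chrMT:10167-11544, ND5 at chrMT:11742-13565, ND6 at chrMT:13552-14070 and CYTB at chrMT:14145-15288. The first set of sequences is shown because the ends of some of these genes depend on polyadenylation, the feature by which the libraries captured RNA. COX3, ND4 and CYTB end on a single T, in capitals at the end of their last 30 bases, and the poly(A) tail supplies the rest of the stop codon. COX1 is shown for comparison, with a complete stop codon in capitals.
COX3, chrMT:9361-9390, plus strand: tatacgtctccatttattgatgaggatctT
ND4, chrMT:11515-11544, plus strand: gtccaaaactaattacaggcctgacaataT
CYTB, chrMT:15259-15288, plus strand: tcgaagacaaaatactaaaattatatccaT
COX1, chrMT:6843-6872, plus strand: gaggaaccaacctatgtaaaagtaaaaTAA

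The second set is shown because overlapping neighbours share bases, and reads there cannot be split between them. ATP8 and ATP6 overlap by 43 bases, and the first 30 bases of ATP6 lie within ATP8, with the ATP6 start codon in capitals. ND4L and ND4 overlap by 7 bases, in capitals. ND5 and ND6 overlap by 14 bases on opposite strands, in capitals in the last sequence, which is written on the plus strand. The sources used here do not say whether reads were counted by strand, so reads in that last overlap may have gone to either gene.
ATP6 start, chrMT:7927-7956, plus strand: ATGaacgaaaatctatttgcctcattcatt
ND4L to ND4, chrMT:10152-10181, plus strand: tctcaacctactacaATGCTAAaaattatt
ND5 to ND6, chrMT:13544-13573, plus strand: atactcaaTTAATCTCGAGTAAtctcgata

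The libraries held 47199949 to 61655287 counts, and every one of the 10 genes was counted in every tumor, from 3197 counts at the lowest for ND6 to 3600677 at the highest for COX1. Levels of different genes were compared per length, in TPM, transcript levels scaled by the authors for gene length and to the same total in every tumor. COX1, the catalytic subunit of cytochrome c oxidase, ranked 1st among all genes by mean TPM, at a mean level of 35600 TPM over the 16 tumors. COX2 at 17473 TPM, CYTB at 16870 TPM and ATP6 at 16860.4 TPM followed. The order of these 3 changed between tumors, COX2 lying above CYTB in 9 of 16 tumors and CYTB above ATP6 in 6 of 16.

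ND1 came next at a mean level of 12933 TPM and COX3 at 10437 TPM, with ND1 above COX3 in 14 of 16 tumors. ND4 (5744 TPM), ND2 (4478 TPM), ND5 (3445 TPM) and ND6 (465 TPM) held the last 4 places in that order in all 16 tumors. The single minus-strand gene thus had the lowest level per length in these poly(A) libraries, and the complex I genes other than ND1 lay below those of the other complexes. Such levels depend on capture by the poly(A) tail as well as on abundance, and the part of capture was not tested.

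The 10 genes together took a larger part of the library after chemotherapy in all 4 lean tumors, and in the obese tumors to an extent that differed between replicates. Before therapy they took 5.86%, 4.26%, 4.002% and 4.75% of the read counts in lean replicates 1 to 4, and 5.33%, 4.95%, 4.60% and 3.90% in obese replicates 1 to 4. After ETS the share was 12.5%, 14.1%, 9.49% and 10.9% in lean tumors, each above every pre-therapy tumor. In obese tumors it was 11.2%, 11.3%, 6.44% and 4.50%, so that replicates 1 and 2 lay within the lean post-chemotherapy range, replicate 3 just above the pre-therapy tumors and replicate 4 among them.

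Group means of the share were 4.72% ± 0.822 (SD, n = 4) and 11.8% ± 2.0 in lean tumors before and after ETS, and 4.70% ± 0.610 and 8.37% ± 3.44 in obese tumors. Complex IV genes made up the largest part, at 2.05 to 3.20% of counts in lean tumors before and 5.30 to 8.17% after ETS. Complex I genes took 0.989 to 1.35% and then 2.08 to 3.21% in the same tumors.

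**Figure D1:**
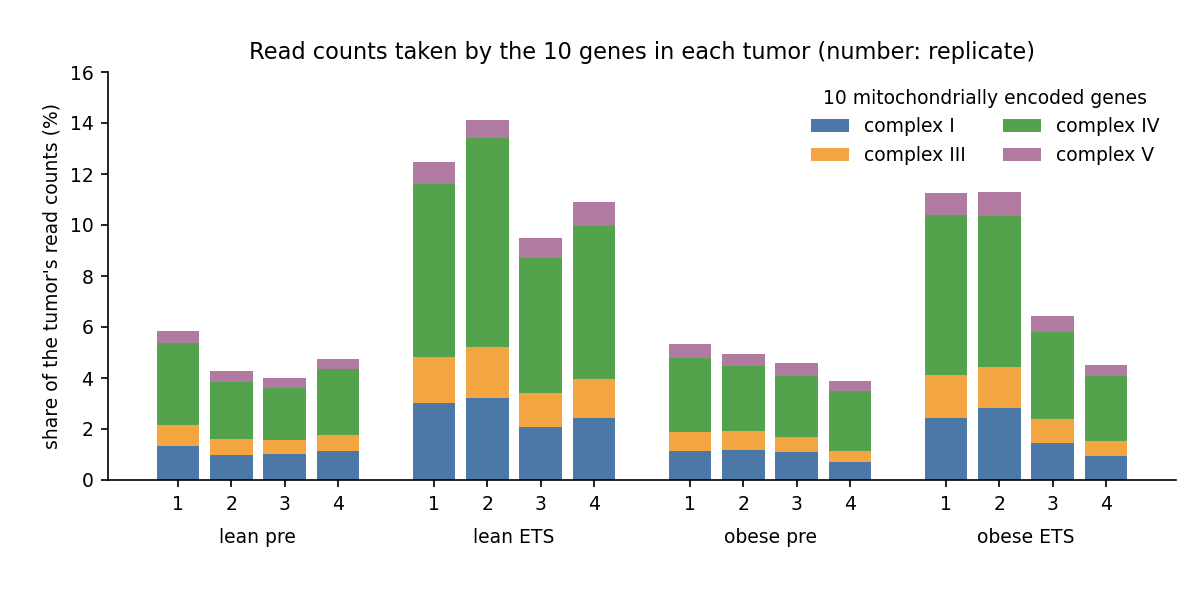
Share of each tumor's read counts (%, vertical axis) taken by the 10 genes, stacked by complex, for replicates 1 to 4 of the 4 groups. Lean ETS bars reach 9.49 to 14.1%, above all pre-therapy bars, while obese ETS bars reach 11.2%, 11.3%, 6.44% and 4.50%.

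The first comparison asked what differed after ETS in lean hosts. All 10 genes were higher in lean tumors post chemotherapy, from 2.23-fold for ATP6 to 3.29-fold for ND6, with a median log2 fold change of 1.49 against -0.01 over all genes. Levels are given as CPM, read counts set relative to the library total, scaled by the trimmed mean of M-values (TMM), and log2 fold changes with standard errors (SE) come from an edgeR quasi-likelihood fit of 16209 genes over all 16 tumors. For 10 of 10 genes the lowest post-chemotherapy tumor lay above the highest pre-therapy tumor, which held in this direction for 20.8% of all genes tested. The fit called 10 of 10 higher at an adjusted p under 0.05, beside 21.0% of all genes tested. Both counts come from the contrast on which the genes were selected.

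COX1 stood at 24104, 14610.3, 13648 and 18098 CPM in lean replicates 1 to 4 before therapy and at 55364, 71930.2, 40369 and 45247 CPM after ETS. Replicate 2 was the highest treated tumor, and even the lowest, replicate 3, exceeded every untreated one. The log2 fold change of COX1 was 1.60 (SE 0.327). COX2, which takes electrons from cytochrome c, ranged from 3011 to 4689.7 CPM before and from 8024 to 13500.4 CPM after ETS (log2 fold change 1.52, SE 0.271). COX3, the other core subunit of complex IV, ranged from 2187 to 3832 and from 5893 to 8702 CPM (1.47, SE 0.291).

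CYTB, the only complex III subunit made in the organelle, stood at 8413, 5791, 5137 and 6087 CPM before therapy and at 19666, 23258, 13742 and 15822 CPM after ETS. Its treated tumors ranked as those of COX1 did. The log2 fold change was 1.51 (SE 0.337).

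ND1, a membrane subunit of complex I, stood at 4843, 3219.6, 3237 and 3934 CPM before therapy and at 13079.6, 14983, 7639.9 and 8718 CPM after ETS, a log2 fold change of 1.54 (SE 0.325). Treated replicates 1 and 2 lay apart from replicates 3 and 4. ND2, ND4 and ND5 encode the antiporter-like subunits of the membrane arm. Their lean tumors ranged from 1466 to 2156 CPM before and 3149 to 5245 CPM after ETS for ND2, from 2527 to 3872 and 5427 to 9562 CPM for ND4, and from 1749 to 2736 and 4852 to 6869 CPM for ND5. They had log2 fold changes of 1.35 (SE 0.327), 1.38 (SE 0.323) and 1.42 (SE 0.306).

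ATP6, which forms part of the proton channel of the ATP synthase, differed least among the 10. It stood at 4968, 3751, 3442 and 3866 CPM before therapy and at 9570.3, 8479.9, 7892 and 9807 CPM after ETS, a log2 fold change of 1.16 (SE 0.238). Here replicate 4 was the highest treated tumor. ND6, a complex I membrane subunit, differed most, at 103, 51.7, 61.6 and 74.6 CPM before and 270.3, 301, 180.0 and 206 CPM after ETS (log2 fold change 1.72, SE 0.374).

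The treated lean tumors kept 1 order, replicate 2 above 1 above 4 above 3, for 9 of the 10 genes, ATP6 being the exception. Over the lean pre-therapy mean, the median of the 10 genes was 3.0-fold in replicate 1, 3.45-fold in replicate 2, 2.15-fold in replicate 3 and 2.50-fold in replicate 4. Scaling by total counts alone set the median of all genes at -0.20 and that of the 10 genes at 1.31.

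**Figure D2:**
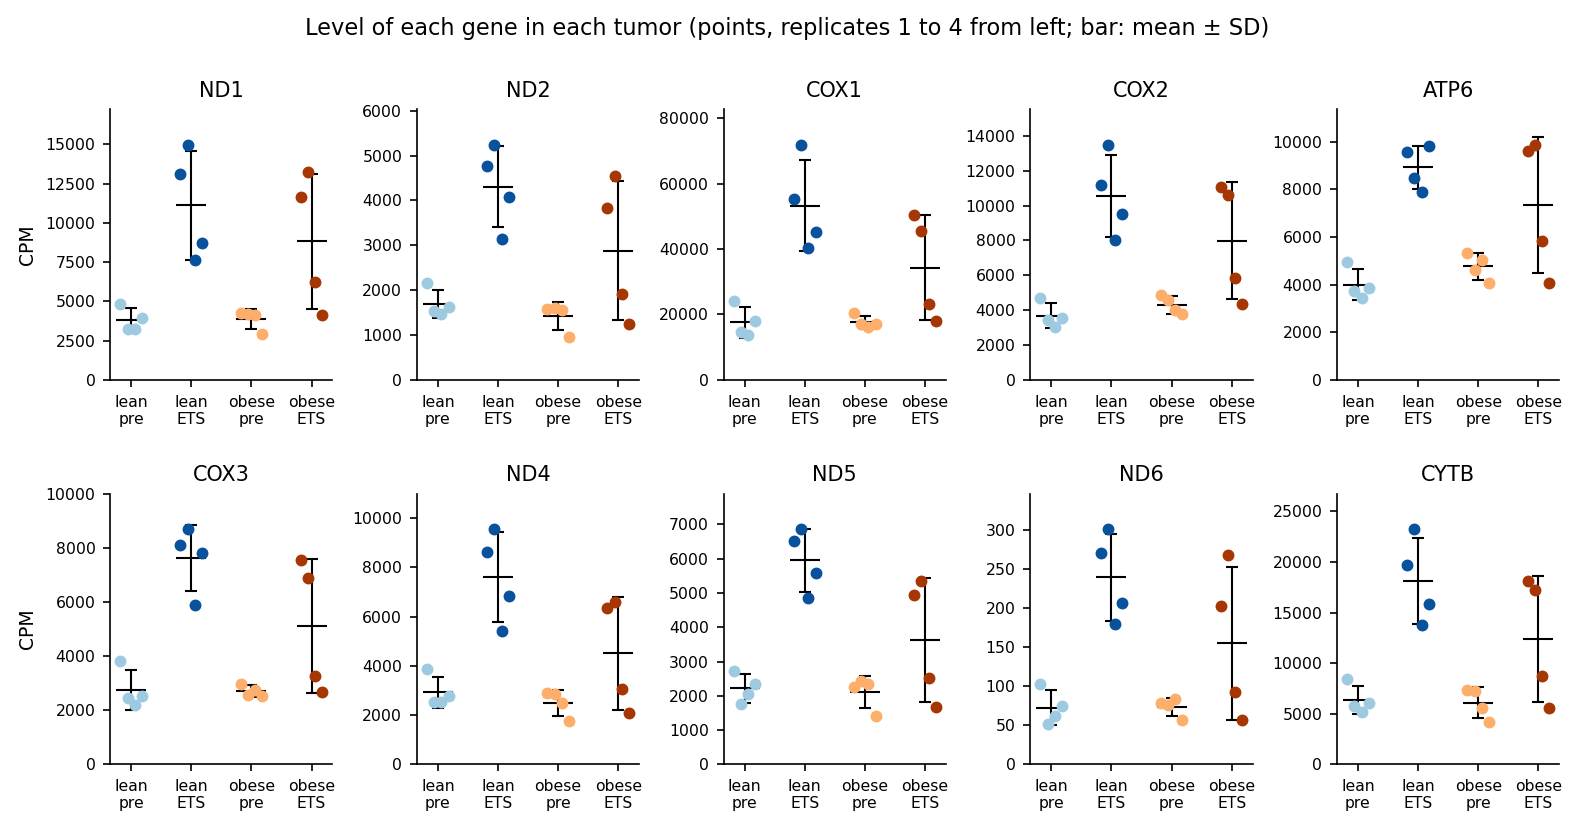
Level of each of the 10 genes (CPM, linear vertical axes from 0) in the 4 groups on the horizontal axis; points are tumors and black bars the mean ± SD (n = 4). In each panel all lean ETS points lie above all lean pre-therapy points, whereas obese ETS points split into replicates 1 and 2, which lie high, and replicates 3 and 4, which lie low.

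In obese hosts the post-chemotherapy tumors split. The log2 fold changes of the 10 genes ran from 0.63 for ATP6 to 1.19 for ND1, with a median of 0.94 against 0.01 over all genes. The groups overlapped for all 10 genes, where 16.4% of all genes tested were higher without overlap. The fit called 9 of 10 higher, all but ND5, beside 21.2% of all genes, a count that again rests on the values used for selection.

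That count moved with single tumors and with the scale. On the deposited TPM it was 4 with a pseudocount of 1 and 6 with one of 0.1, and it was 7 without the filter on low counts. It was 1 without obese ETS replicate 1 and 1 without replicate 2, and 10 without replicate 3 or without replicate 4. Among the untreated obese tumors, it was 6, 5, 4 and 2 without replicates 1, 2, 3 and 4 in turn. A fit of the 8 obese tumors alone called 2.

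COX1 stood at 20525, 17081, 16077 and 16986 CPM in obese tumors before therapy and at 50511, 45409.9, 23298 and 18020.4 CPM after ETS. Replicates 1 and 2 reached the level of treated lean tumors, replicate 3 lay a little above the untreated obese tumors, and replicate 4 lay among them. CYTB showed the same split, at 7335, 7280.2, 5549.6 and 4160.5 CPM before and 18144, 17233, 8730.3 and 5532 CPM after ETS.

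ND1 stood at 4231, 4209.8, 4131 and 2901 CPM before and 11641, 13216, 6259 and 4153 CPM after ETS, and ATP6 at 5329, 4628, 5052 and 4054 CPM before and 9617, 9887, 5824 and 4082 CPM after. For both genes replicate 4 lay within the untreated range. ND6 stood at 78.8, 76.1, 83.1 and 56.5 CPM before and 203, 268, 93.2 and 56.4 CPM after ETS, and it was the only gene for which replicate 4 lay below all untreated obese tumors.

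The other 5 genes repeated this layout. COX2 had 11055, 10625, 5853 and 4382 CPM in treated obese replicates 1 to 4, against 3788 to 4853 CPM untreated, and COX3 had 7564, 6873, 3278 and 2676 CPM against 2515 to 2988 CPM. ND2 had 3830.2, 4538, 1914 and 1250.4 CPM against 952 to 1607 CPM, ND4 6369, 6577, 3062 and 2072 CPM against 1763 to 2893 CPM and ND5 4949, 5347, 2524 and 1677 CPM against 1413 to 2429.6 CPM. The log2 fold changes of the 10 in obese tumors were 0.96 (SE 0.322) for COX1, 0.89 (SE 0.268) for COX2, 0.91 (SE 0.288) for COX3, 1.03 (SE 0.333) for CYTB, 1.02 (SE 0.324) for ND2, 0.85 (SE 0.320) for ND4, 0.78 (SE 0.302) for ND5 and 1.07 (SE 0.369) for ND6, beside 1.19 (SE 0.323) for ND1 and 0.63 (SE 0.236) for ATP6.

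Replicates 1, 2 and 3 exceeded every untreated obese tumor in 10 of 10 genes, at a median of 2.72-fold, 2.596-fold and 1.29-fold of the obese pre-therapy mean. Replicate 4 lay within the untreated range in 9 of 10 genes, at a median of 0.894-fold. Replicates 1 and 2 also exceeded the lowest treated lean tumor in 10 of 10 genes, and replicates 3 and 4 in 0 of 10.

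The study asked whether obesity alters the response to chemotherapy, so the ETS effect in lean tumors was set against that in obese tumors. The lean effect was the larger for 10 of 10 genes, by 0.33 for ND2 to 0.64 for ND6 on the log2 scale, with SEs of 0.332 to 0.516 and a median of 0.55 against 0.05 over all genes. By edgeR 0 of 10 were called, and 0 of 10 had an unadjusted p under 0.05, beside 6.35% of all genes called in this direction and 16.4% in either, from which nothing is read, the read counts having served for selection. DESeq2 and limma also called 0. The median difference was 0.31 without obese ETS replicate 4 and 0.75 without replicate 2.

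Before therapy the 10 genes showed no common direction between hosts. Obese minus lean log2 differences ran from -0.25 for ND2 to 0.25 for ATP6, 5 of 10 being positive, with SEs of 0.235 to 0.365. By edgeR 0 of 10 were called and 0 had an unadjusted p under 0.05, beside 26.4% of all genes called in either direction, and DESeq2 and limma called 0. The 2 groups overlapped for all 10, whereas 30.4% of all genes did not overlap.

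After ETS the 10 genes averaged lower in obese tumors, by log2 differences of -0.28 for ATP6 to -0.75 for ND4. By edgeR 0 of 10 were called and 2 had an unadjusted p under 0.05, beside 5.58% of all genes called, and DESeq2 and limma called 0. The groups overlapped for all 10, whereas 13.2% of all genes did not overlap. The median difference was -0.58, and it was -0.33 without obese ETS replicate 4. With limma-voom the difference of ND1 was 0.04, of the other sign, and with the replicate number as a block 1 of 10 was called.

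The 10 messengers followed each other closely from tumor to tumor. Pearson's r between their log2 CPM over the 16 tumors had a median of 0.97 over 45 pairs, from 0.91 for ND4 and ATP6 to 0.99 for ND2 and ND4. The points share library size and scaling. Proportions among the 10 were read as each gene's log2 CPM minus the mean of the 10 in the same tumor. Most genes overlapped between groups in each comparison. The exceptions are described next, with no share over all genes beside them, and nothing is read from their number.

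ND6 moved from -5.18 ± 0.173 to -4.91 ± 0.0615 (SD, n = 4) in lean tumors, without overlap, and from -5.12 ± 0.0967 to -5.09 ± 0.272 in obese tumors, with overlap. ND2 moved the other way in lean tumors, from -0.61 ± 0.0587 to -0.73 ± 0.0452 without overlap. ND1 moved from 0.59 ± 0.0560 to 0.85 ± 0.0568 in obese tumors without overlap, and its lean groups, at 0.56 ± 0.0498 and 0.60 ± 0.181, overlapped. Whether these shifts differ between hosts was not tested.

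Other proportions differed by host. Before therapy ND2 lay at -0.66 to -0.54 in lean and -1.08 to -0.74 in obese tumors. ATP6 lay at 0.547 to 0.752 in lean and 0.754 to 1.01 in obese tumors before therapy, almost touching. After ETS ND5 lay at -0.35 to -0.17 in lean and -0.48 to -0.41 in obese tumors. ND4 stood at 0.18 ± 0.0419 in lean and -0.05 ± 0.109 in obese tumors before therapy, and at 0.08 ± 0.0677 and -0.13 ± 0.0360 after ETS, the obese tumors lying below all lean ones each time. COX2 took 12.8 to 13.97% of the TPM of the 10 genes in lean and 14.2 to 15.6% in obese tumors before therapy, and 13.4 to 13.9% and 14.2 to 15.9% after ETS. COX2 thus held a larger share of TPM in every obese tumor than in the lean tumors at the same stage. As log2 CPM minus the mean of the 10, COX2 overlapped between hosts. Before therapy it stood at 0.46 to 0.62 in lean and 0.60 to 0.92 in obese tumors. After ETS it stood at 0.51 to 0.63 and 0.58 to 0.91.

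ATP6 took 13.6, 15.3, 15.1 and 14.1% of the TPM of the 10 genes in lean replicates 1 to 4 before and 11.5, 8.76, 13.3 and 14.01% after ETS. Treated lean replicate 2 held the lowest ATP6 share and, at 32.7%, the highest COX1 share of all 16 tumors. In obese tumors the ATP6 share was 15.6 to 18.04% before and 12.6 to 15.2% after ETS, without overlap. As log2 CPM minus the mean of the 10, ATP6 in obese tumors overlapped, at 0.75 to 1.01 before and 0.48 to 0.80 after ETS.

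The mitochondrial genes outside the 10 could be tested in the same fit. They come from the same long precursors as the 10, and some share bases with them. Their tests are therefore not independent of the values used for selection. ND3, a small complex I subunit, rose after ETS in lean tumors from 119.8 ± 31.6 to 315 ± 63.6 CPM (SD, n = 4; log2 fold change 1.39, SE 0.293, edgeR adjusted p = 0.00165) and in obese tumors from 130.2 ± 29.3 to 275 ± 125 CPM (1.08, SE 0.291, edgeR adjusted p = 0.00901). ND4L, a complex I subunit whose gene overlaps ND4, rose in lean tumors by 1.39 (edgeR adjusted p = 0.00289), and its value in obese tumors was 0.81 (edgeR adjusted p = 0.0503). ATP8, a subunit of the ATP synthase encoded on the ATP6 messenger, rose in lean tumors by 1.04 (edgeR adjusted p = 0.00268), and its value in obese tumors was 0.46 (edgeR adjusted p = 0.127).

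ATP8 and ATP6 had the lowest ETS fold changes of the 13 protein genes in both hosts. The log2 ratio of ATP8 to ATP6 in CPM stayed between -2.32 and -2.02 in the 16 tumors, and that of ND4L to ND4 between -2.85 and -2.66. Both pairs are genes on a shared messenger, whose sequences overlap as printed above. Whether their ratios were steadier than those of genes on separate messengers was not tested.

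The mitochondrial ribosomal RNAs, which carry only short tails, took 0.0369% to 0.123% of counts. mt-Rnr1, the RNA of the small subunit, rose in lean tumors from 203 ± 61.0 to 488 ± 71.2 CPM (1.26, edgeR adjusted p = 0.0021) and in obese tumors from 250.3 ± 115 to 459 ± 83.6 CPM (0.87, edgeR adjusted p = 0.0194), a call lost without obese pre-therapy replicate 3 or obese ETS replicate 1. mt-Rnr2, the RNA of the large subunit, rose by 1.37 (edgeR adjusted p = 0.000451) and by 0.99 (edgeR adjusted p = 0.00464). In obese tumors mt-Rnr2 stood at 365, 236, 282 and 427 CPM before and 713, 811, 459 and 613 CPM after ETS. All 4 treated obese tumors exceeded the untreated ones in mt-Rnr2, including replicate 4, in which the messengers did not.

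Of the 22 mitochondrial tRNA genes, 16 had counts in all tumors and were tested. After ETS 15 of 16 rose in lean tumors, all but TrnF, beside 21.0% of all genes, with a median log2 fold change of 2.14 over the 16. In obese tumors 11 of 16 rose, beside 21.2% of all genes, with a median of 1.38. A tRNA gene spans fewer bases than 1 read of these libraries, so reads counted for it may also cover its neighbours. TrnL1, which lies just before ND1, rose from 13.5 ± 2.24 to 64.4 ± 32.6 CPM in lean tumors (2.26, edgeR adjusted p = 0.00134) and from 24.1 ± 7.80 to 63.4 ± 39.5 CPM in obese tumors (1.40, edgeR adjusted p = 0.0218). The obese call was lost without obese ETS replicate 1, obese ETS replicate 2 or obese pre-therapy replicate 4.

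TrnS1 overlaps the last 3 bases of COX1 on the other strand, and its log2 ratio to COX1 stayed between -8.39 and -7.95 in all 16 tumors. TrnS1 itself rose by 1.75 in lean (edgeR adjusted p = 0.000576) and 1.14 in obese tumors (edgeR adjusted p = 0.01). TrnE, next to ND6, had the largest log2 fold changes among tRNAs that rose in both hosts, 2.55 (edgeR adjusted p = 0.00112) and 2.35 (edgeR adjusted p = 0.00222), from means of 0.596 ± 0.296 and 0.704 ± 0.203 CPM. The remaining tRNAs stayed at or below 13.5 CPM: TrnG, TrnI, TrnM, TrnC, TrnY, TrnD, TrnK, TrnR, TrnL2, TrnT, TrnP and TrnW rose in lean tumors by 1.43 to 2.67. Apart from TrnM at 3.53 and TrnY at 0.951 CPM, their untreated lean means were 0.288 CPM or less, near the floor. TrnR, with the largest rise, had an untreated lean mean of 0.0877 CPM. The count and median over the 16 tRNAs thus rest mostly on such low values. TrnV, TrnQ, TrnA, TrnN, TrnH and TrnS2 had no count in at least 1 tumor and were not tested.

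Before therapy TrnW was higher in obese than lean tumors by 1.22 (edgeR adjusted p = 0.0263) and TrnK by 1.29 (edgeR adjusted p = 0.0398), both from under 1 CPM. The call of TrnW was lost in 5 and that of TrnK in 8 of the 16 fits that each left out 1 tumor. By edgeR 0 of the 21 other mitochondrial genes were called for the gap between the ETS effects, beside 16.4% of all genes. An unadjusted p under 0.05 was found for 1. For obese against lean tumors after ETS 0 were called, beside 5.58% of all genes, and 1 had an unadjusted p under 0.05. DESeq2 and limma called 0 in both.

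**Figure D3:**
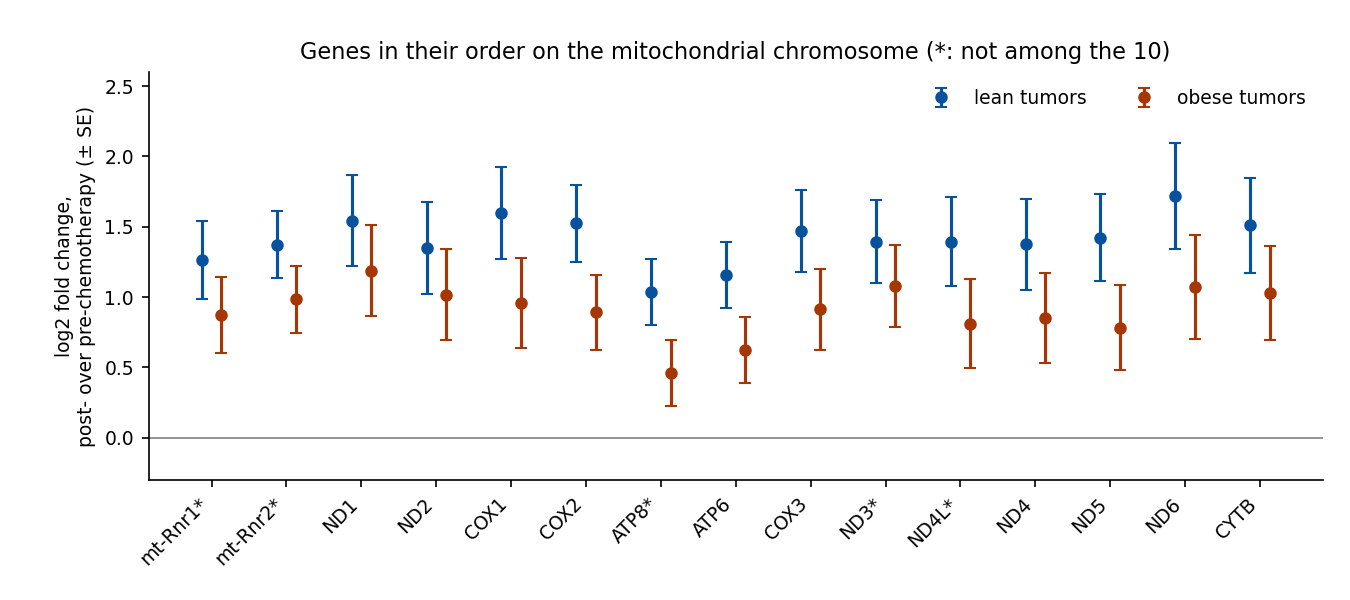
Log2 fold change of post- over pre-chemotherapy tumors (vertical axis; whiskers ± 1 SE from the fit) for 15 mitochondrial genes in chromosome order on the horizontal axis, in lean and obese tumors; asterisks mark genes outside the 10. All points lie above 0, from 0.46 for ATP8 in obese tumors to 1.72 for ND6 in lean tumors, and each obese point lies below the lean point of the same gene.

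The nuclear partners of these genes were read from a list of 78 subunits of complexes I to V, all tested. After ETS in lean tumors 77 of 78 rose and 0 fell, beside 21.0% of all genes called higher, with a median log2 fold change of 0.67. They were 36 of 37 in complex I, 4 of 4 in complex II, 9 of 9 in complex III, 11 of 11 in complex IV and 17 of 17 in complex V. On the deposited TPM scale, on which the median of all genes stood at -0.28, 50 rose and 0 fell.

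Uqcrh, the hinge protein of complex III, rose in lean tumors from 96.5 ± 4.25 to 215 ± 12.8 CPM (log2 fold change 1.16, edgeR adjusted p = 1.22e-05). Ndufa13, a complex I subunit, rose from 99.7 ± 13.1 to 213 ± 31.2 CPM (1.10, edgeR adjusted p = 0.000115). Cox4i1, a regulatory subunit of cytochrome c oxidase, rose by 1.09 (edgeR adjusted p = 5.49e-05), Sdhb, the iron-sulfur subunit of complex II, by 0.67 (edgeR adjusted p = 0.0028) and Atp5h, a stalk subunit of the ATP synthase, by 0.92 (edgeR adjusted p = 0.000114). These 5 calls held with any 1 tumor left out.

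In obese tumors 5 of 78 rose and 0 fell, beside 21.2% of all genes called higher, with a median of 0.13. They were Ndufa13 (0.54), Ndufa11 (0.49) and Ndufa3 (0.32) of complex I, Uqcrh (0.33) of complex III and Cox6b1 (0.34) of complex IV. The number called was 17 without obese ETS replicate 4, 10 without obese ETS replicate 3, 9 without lean ETS replicate 2, 3 without obese pre-therapy replicate 1 or obese ETS replicate 1, and 2 without obese ETS replicate 2.

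In the test of the gap itself, 50 of 78 nuclear subunits had a larger ETS effect in lean tumors and 0 a smaller one, beside 6.35% of all genes called in the former direction. The count was 20 on the deposited TPM scale. It fell to between 29 and 31 in 7 fits, those without lean pre-therapy replicate 2, 3 or 4, lean ETS replicate 1, obese pre-therapy replicate 3 or 4 or obese ETS replicate 3. The largest gaps by complex were those of Ndufv3, an accessory subunit of complex I, at 0.92 (SE 0.179, edgeR adjusted p = 0.00253), Uqcr11 of complex III at 0.83 (edgeR adjusted p = 0.00388), Atp5md of complex V at 0.81 (edgeR adjusted p = 0.0104) and Cox6a1 of complex IV at 0.80 (edgeR adjusted p = 0.0046). Ndufv3 and Atp5md lost the call on the deposited TPM scale.

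The hosts differed in these nuclear genes before therapy. Obese tumors were higher in 65 of 78 and lower in 0, beside 13.5% of all genes called higher, with a median log2 difference of 0.49. Ndufv3 stood at 86.6 ± 6.76 CPM in lean and 188 ± 30.2 CPM in obese tumors (log2 difference 1.12, edgeR adjusted p = 1.9e-05), and Cox7b of complex IV at 149 ± 22.5 and 265 ± 68.6 CPM (0.82, edgeR adjusted p = 0.00439). After ETS edgeR called 0 of 78 between hosts, 3 had an unadjusted p under 0.05 and DESeq2 called 1. The untreated obese tumors enter the ETS effect in obese hosts, the gap between effects and the pre-therapy comparison, so these counts share samples.

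The proportion between the 2 genomes differed accordingly. The mean log2 CPM of the 10 mitochondrial genes minus that of the 78 nuclear subunits was 4.85, 4.41, 4.45 and 4.63 in lean tumors before and 5.49, 5.58, 5.11 and 5.33 after ETS. In obese tumors it was 4.38, 4.30, 3.99 and 3.70 before and 5.22, 5.32, 4.52 and 4.09 after ETS. Every untreated obese tumor lay below every untreated lean tumor, although the mitochondrial genes alone overlapped between these groups.

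By complex, this measure did not overlap between hosts before therapy for complex I, at 4.16 ± 0.209 in lean and 3.62 ± 0.370 in obese tumors, and complex III, at 5.56 ± 0.195 and 4.91 ± 0.496. The margins were narrow, with the highest obese tumor at 3.89 and the lowest lean tumor at 3.91 for complex I. For complex III these were 5.38 and 5.39. The measure overlapped for complex IV, at 5.21 ± 0.315 in lean and 4.76 ± 0.308 in obese tumors. It also overlapped for complex V, at 4.57 ± 0.124 and 4.30 ± 0.220. The mean of the nuclear subunits alone was 6.73 ± 0.103 and 7.41 ± 0.0945 in lean tumors before and after ETS, and 7.22 ± 0.123 and 7.32 ± 0.199 in obese tumors.

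**Figure D4:**
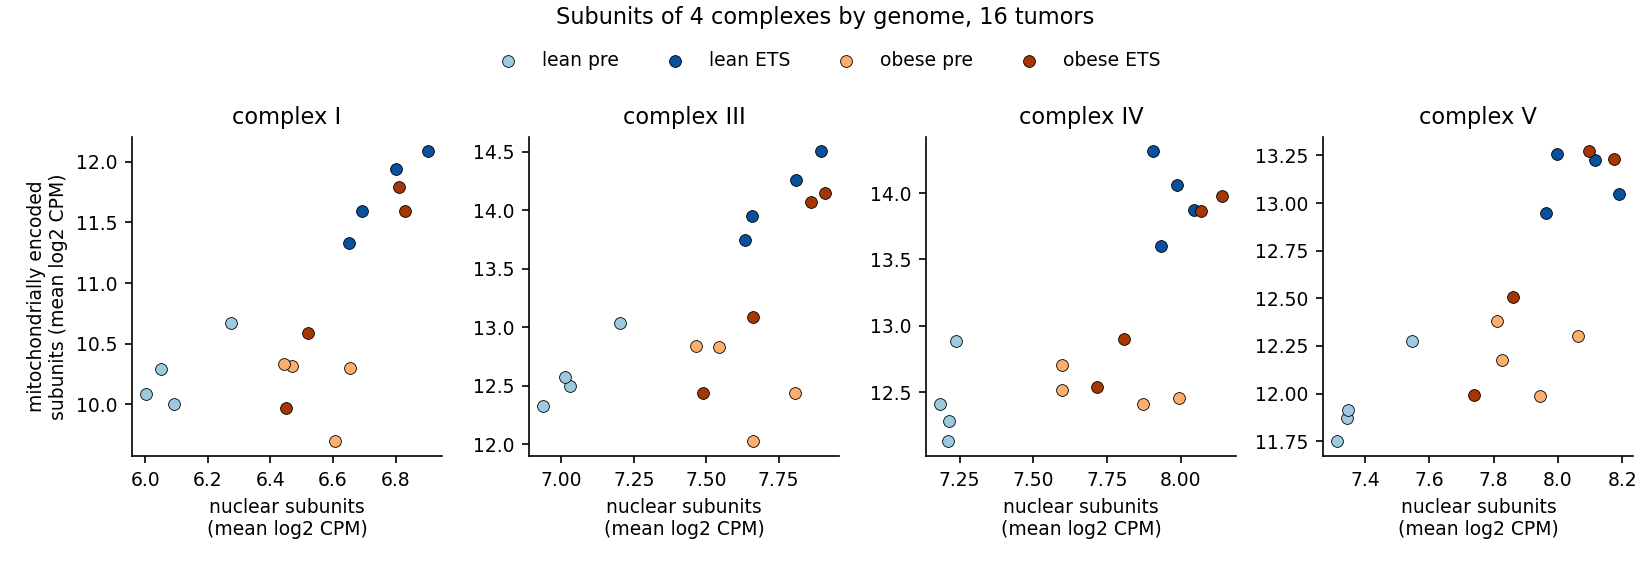
Mean log2 CPM of the mitochondrially encoded genes (vertical axis) against that of the nuclear subunits (horizontal axis) of complexes I, III, IV and V in 16 tumors, coloured by group; axes do not start at 0. Untreated obese tumors lie to the right of untreated lean tumors at overlapping heights, and 2 of the 4 treated obese tumors lie with the treated lean tumors at the upper right.

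Genes that copy, transcribe, process and translate mitochondrial DNA did not share 1 direction. Of 63, 10 rose and 8 fell with ETS in lean hosts, beside 21.0% and 22.8% of all genes. In obese hosts 1 rose and 17 fell, beside 21.2% and 19.0%. The lean split depended on scaling, with 3 higher and 25 lower by total counts and 0 and 35 on the deposited TPM scale.

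Tfam, which packages mitochondrial DNA, and Polrmt, the mitochondrial RNA polymerase, were chosen after their values were seen. Tfam fell by 0.37 in obese tumors (edgeR adjusted p = 0.00493) and had a log2 fold change of -0.11 in lean tumors (edgeR adjusted p = 0.341). Polrmt had log2 fold changes of -0.11 in lean (edgeR adjusted p = 0.438) and -0.14 in obese tumors (edgeR adjusted p = 0.311). Tfb2m, a transcription initiation factor, rose in lean tumors from 19.5 ± 1.25 to 26.8 ± 2.38 CPM (0.46, edgeR adjusted p = 0.00276), a call lost by total counts and on the deposited TPM scale.

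Tk2, a mitochondrial thymidine kinase, rose in lean (0.43, edgeR adjusted p = 0.00251; call lost on the deposited TPM scale) and obese tumors (0.45, edgeR adjusted p = 0.00215). Ssbp1, which binds single-stranded mitochondrial DNA, fell by 0.53 in obese tumors (edgeR adjusted p = 0.000975). Pnpt1, a ribonuclease of mitochondrial RNA, fell by 0.47 in lean (edgeR adjusted p = 0.0141) and 0.57 in obese tumors (edgeR adjusted p = 0.00508). Trmt10c, a subunit of the RNase P that cuts out tRNAs, fell by 0.56 in obese tumors (edgeR adjusted p = 0.0124), and Tsfm, a translation elongation factor, by 0.43 (edgeR adjusted p = 0.0022).

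Among 15 regulators of mitochondrial biogenesis, 2 rose and 7 fell after ETS in lean hosts, and 2 rose and 6 fell in obese hosts. Over all genes the called shares were 21.0% higher and 22.8% lower in lean hosts and 21.2% and 19.0% in obese hosts. Esrra, a nuclear receptor of respiratory genes, rose by 0.99 in lean tumors (edgeR adjusted p = 0.000178), and before therapy it was 0.64 higher in obese tumors (edgeR adjusted p = 0.00611). Nrf1, a transcription factor of the same genes, fell by 0.46 in lean (edgeR adjusted p = 0.000719) and 0.59 in obese tumors (edgeR adjusted p = 0.000159).

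Of 13 genes of mitophagy, fission and fusion, 8 rose and 0 fell in lean hosts, and 3 rose and 2 fell in obese hosts, beside the same all-gene shares of 21.0% and 22.8% in lean and 21.2% and 19.0% in obese hosts. Pink1, the kinase that marks damaged mitochondria, rose by 1.22 in lean tumors (edgeR adjusted p = 0.000144) and 0.58 in obese tumors (edgeR adjusted p = 0.0195), the latter call lost without obese pre-therapy replicate 3 or 4 or obese ETS replicate 1. Of 33 assembly factors of complexes I and IV, 12 rose in lean hosts, led by Cox14 at 0.99 (edgeR adjusted p = 4.64e-05), and in obese hosts 2 rose and 6 fell, beside 21.0% of all genes higher in lean and 21.2% higher and 19.0% lower in obese hosts. Of 8 nuclear-retained and structural noncoding RNAs, 1 rose and 1 fell in lean hosts and 0 rose and 2 fell in obese hosts. Over all genes 21.0% rose and 22.8% fell in lean hosts, and 21.2% rose and 19.0% fell in obese hosts.

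Melanocyte markers varied with the 10 genes. All 8 were counted in every tumor, and their summed level in lean replicates 1 to 4 was 24147, 19022, 22275 and 22104 CPM before and 27992, 25770.5, 24228 and 26325 CPM after ETS. In obese tumors it was 15269, 15866, 13074 and 11621 CPM before and 26648, 24244, 14555 and 11264 CPM after ETS. Replicates 1 and 2 of the treated obese tumors, with high mitochondrial genes, thus also had high melanocyte markers. Untreated lean tumors exceeded untreated obese ones in these markers without overlap, at overlapping levels of the 10 genes. Of the 8, 2 rose in lean and 3 in obese tumors after ETS, beside 21.0% and 21.2% of all genes called higher. Before therapy 4 were lower in obese tumors, beside 2099 of all 16209 genes called lower and 26.4% called in either direction. Over the 16 tumors Pearson's r between the mean z-score of the 10 genes and the log2 marker sum was 0.74, as a description. The part of these markers in the result was not tested.

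**Figure D5:**
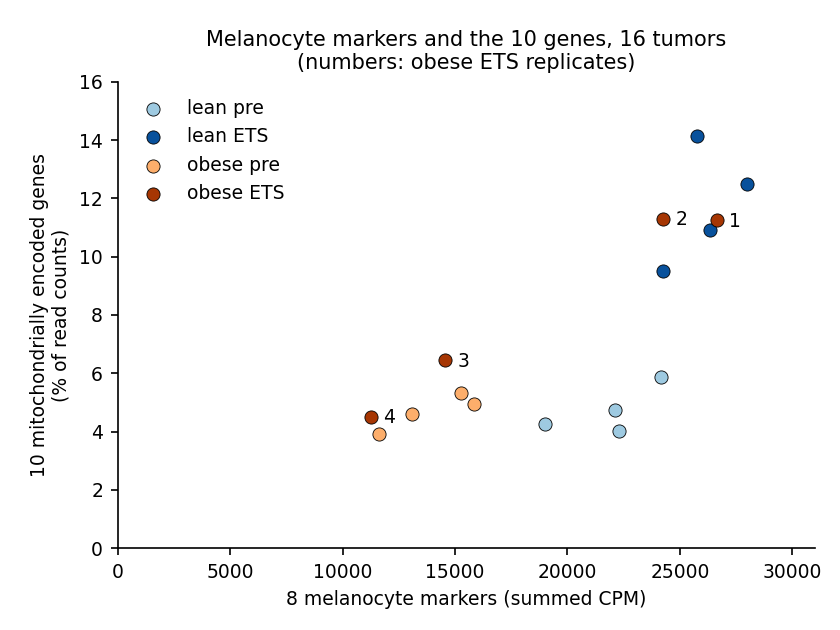
Share of read counts taken by the 10 genes (%, vertical axis) against the summed level of 8 melanocyte markers (CPM, horizontal axis) in 16 tumors coloured by group, with treated obese replicates numbered. Treated obese replicates 1 and 2 lie with the treated lean tumors and replicates 3 and 4 with the untreated obese tumors, while untreated lean tumors hold 19022 to 24147 CPM of markers at 4.002 to 5.86% of counts.

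Macrophage and fibroblast markers moved in opposite directions in the 2 hosts. Of 8 macrophage markers, 5 fell in lean and 5 rose in obese tumors, beside 22.8% and 21.2% of all genes. The ETS effects of these markers differed between hosts for 7 of 8, beside 16.4% of all genes called in either direction. Their sum was 332 to 1097 CPM before and 46.4 to 348 CPM after ETS in lean tumors, and 39.9 to 225 and 288 to 902 CPM in obese tumors. Of 7 fibroblast markers, 4 fell in lean and 7 rose in obese tumors, and 7 of 7 differed, beside the same all-gene shares. The fibroblast sum was 531 to 2189 CPM before and 97.1 to 599 CPM after ETS in lean tumors, and 95.5 to 605 CPM in untreated obese tumors. Treated obese replicates 1 to 4 held 1837, 927, 611 and 5692 CPM of fibroblast markers, replicate 4, with the lowest mitochondrial share of its group, being the highest. The 6 endothelial markers summed to 155 to 320.1 CPM in treated obese tumors and 101.3 to 164 CPM in the others. In obese tumors 5 of 6 rose, beside 21.2% of all genes called higher. In lean tumors 1 of 6 fell, beside 22.8% of all genes called lower. The part of stromal markers in the result was not tested.

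Skeletal muscle, a tissue rich in mitochondria, was uneven between tumors. Its 13 markers summed to 402, 245, 11.04 and 11.8 CPM in treated lean replicates 1 to 4 and 13.8, 574, 12.4 and 9.56 CPM in treated obese replicates 1 to 4. In untreated tumors they summed to 4.18, 231, 2.32 and 58.9 CPM in lean and 5.92 to 7.24 CPM in obese tumors. Of the 13, 9 were at 0 in at least 1 tumor. The list includes the respiratory subunits Cox6a2, Cox7a1 and Cox8b, so the sums are partly respiratory genes. Cox7a1 stood at 0.201 to 0.492 CPM before and 5.42 to 6.74 CPM after ETS in lean tumors. In obese tumors it stood at 1.87 to 2.98 CPM before and 4.15 to 7.65 CPM after ETS. Of the treated tumors with under 20 CPM of muscle markers, lean replicates 3 and 4 and obese replicates 1 and 3 held all 10 genes above every untreated tumor of their host, and obese replicate 4 held 9 of 10 within the untreated range. The other treated tumors, with 245 CPM or more of muscle markers, also held all 10 genes above every untreated tumor of their host. Treated lean tumors ranked replicate 2 above 1 above 4 above 3 for 9 of 10 genes. Treated obese replicate 2 was the highest of its group for 6 of 10. The part of muscle in the result was not tested.

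Blood and skin varied too. The 5 erythrocyte markers, all at 0 in at least 1 tumor, summed to 108 to 481 CPM in lean and 859 to 13059 CPM in obese tumors before therapy and to 0 to 0.158 and 1.34 to 38.4 CPM after ETS. The 7 T cell markers, 6 of them at 0 in at least 1 tumor, summed to 27.9 to 45.9 CPM in untreated lean tumors and to 4.29 CPM or less in the others. The 7 adipocyte markers, 6 at 0 in at least 1 tumor, summed to 10.2 to 25.2 and 7.66 to 17.5 CPM in lean tumors before and after ETS and to 13.5 to 100.5 and 66.1 to 258 CPM in obese tumors. The 5 keratinocyte markers were at 0 in most tumors and reached 142 CPM in treated obese replicate 2. The part of these cells in the result was not tested.

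The nuclear genes most like the 10 were found by Pearson's r between their log2 CPM and the mean z-score of the 10 genes over the 16 tumors, among 13294 nuclear genes with a mean level of 1 CPM or more. They were Rdh14, a retinol dehydrogenase (r = 0.98), Atp6v0e (0.98) and Atp6v1e1 (0.98), subunits of the vacuolar proton pump, Vamp8, a vesicle fusion protein (0.97), and BC004004 (0.97). Being picked for this likeness, they are described without a test. Vamp8 stood at 111, 85.0, 79.3 and 83.0 CPM in lean tumors before and 168, 198, 137 and 153 CPM after ETS, and at 91.6, 93.6, 81.2 and 68.0 and 156, 167, 109.8 and 101.1 CPM in obese tumors. Treated obese replicates 1 and 2 again lay above replicates 3 and 4.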

How the data were processed

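RNA of 16 tumors, 4 in each of 4 groups, was sequenced from TruSeq Stranded mRNA (poly(A)) libraries as paired ends. The labels number the tumors but do not tie each to its own mouse, so p-values measure the spread between these tumors. Per the labels and the study's methods, the authors trimmed reads with Trimmomatic, aligned them to mm10 with HISAT2 2.1.0 and quantified 45777 genes with StringTie 2.1.3b. The deposited read counts are raw, 47199949 to 61655287 per tumor. The deposited TPM, scaled by the authors per length and to the same total in every tumor, served for levels between genes and as an alternative scale, and the deposited FPKM were not used.

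Counts of the 16209 genes above 0 in every tumor, the study's filter, were scaled by TMM and tested with edgeR 4.0.16 (quasi-likelihood, R 4.3.3), 1 mean per group over all 16 tumors. P-values of 5 comparisons were adjusted by Benjamini-Hochberg over all genes, with a call at an adjusted p under 0.05. Self-tests on simulated data for ETS in lean tumors (15924 genes) called 58 of 95 genes changed 2-fold and 86 of 98 changed 4-fold, and for the gap between ETS effects 35 and 76 of the same numbers. DESeq2 1.42.0, limma 3.58.1, other filters and scalings, and fits without each tumor in turn were alternatives. The 10 genes and all gene lists were chosen with earlier results of these data known. Named genes were the 10, all other mitochondrial genes, up to 3 per nuclear list, comparison and direction with the largest called change, from which examples are printed, and the 5 nuclear genes most like the 10. Positions are those of RefSeq and sequences those of GENCODE M21 transcripts, both for GRCm38.p6.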

Additional observations from a re-analysis of the deposited data

Results flagged for a closer look

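A single tumor standing apart from the other 3 of its group was looked for in 168 groups of 4 values, and 12 were found. Chance marks about 1 in 20 where groups are separate and values spread evenly. The mitochondrial genes vary together and are not separate looks. Keratinocyte sums were 0 in the other 3 tumors of both treated groups, where that rate does not hold. Untreated obese replicate 4 was the lowest of its group for ND1 at 2901 CPM, ND2 at 952 CPM and TrnM at 1.08 CPM, and it held the highest sum of erythrocyte markers at 13059 CPM. TrnI had a low value of 0.0598 CPM in untreated obese tumors and TrnG one of 0.107 CPM in treated lean tumors. TrnC had a high value of 0.149 CPM and TrnT one of 0.282 CPM in untreated lean tumors. Treated obese replicate 2 held 574 CPM of muscle and 142 CPM of keratinocyte markers. Single high values of keratinocyte markers were 3.37 CPM in untreated and 0.0400 CPM in treated lean tumors.

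The ETS effect differed between hosts for genes of 12 nuclear lists in the edgeR test of the gap itself, given here for the largest gap of each list as the log2 effect in lean minus that in obese tumors. Among respiratory subunits the values were 0.92 for Ndufv3 (edgeR adjusted p = 0.00253), 0.66 for Sdhb (edgeR adjusted p = 0.0446), 0.83 for Uqcr11 (edgeR adjusted p = 0.00388), 0.80 for Cox6a1 (edgeR adjusted p = 0.0046) and 0.81 for Atp5md (edgeR adjusted p = 0.0104). Among genes of mitochondrial expression and assembly they were 0.63 for Mterf4 (edgeR adjusted p = 0.0169), 0.44 for Grsf1 (edgeR adjusted p = 0.0321), 0.51 for 1700021F05Rik (edgeR adjusted p = 0.0397) and 0.70 for Cox14 (edgeR adjusted p = 0.0154). Pparg, a nuclear receptor of fat cells, fell in lean and rose in obese tumors, a gap of -3.47 (edgeR adjusted p = 0.0011). Bnip3l, a mitophagy receptor, had a gap of 0.77 (edgeR adjusted p = 0.0492), and Rn7s1 one of 2.36 (edgeR adjusted p = 0.00451). In the 16 fits that each left out 1 tumor, the call was lost in 10 for Sdhb, 10 for Grsf1, 11 for 1700021F05Rik and 13 for Bnip3l, and in none for the other 8.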

How the results depend on the processing

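Under the 12 alternatives to the edgeR fit (10 for the gap between ETS effects) and the 16 fits that each left out 1 tumor, the 10 genes were higher after ETS in both hosts throughout. After ETS, 1 of the 10 differences between hosts changed sign under 1 alternative, that of ND1 at 0.04 by limma-voom. The lean median of the 10 was 1.12 on log2(TPM + 1) and 1.12 on log2(TPM + 0.1), and they took 8.69%, 18.6%, 8.26% and 14.2% of TPM in lean pre, lean ETS, obese pre and obese ETS tumors. Of the 78 nuclear subunits, 50 and 49 were called on these scales for ETS in lean tumors, 20 and 20 for the gap, and for ETS in obese tumors 10 and 9, with 10 by DESeq2, 17 by limma-voom and 2 with only the groups compared. After ETS, 1 of 78 was lower in obese tumors by DESeq2, DESeq2 size factors and the exact test, and 1 was higher on both TPM scales, where the median of the 78 was 0.06 in place of -0.09. Of the 63 expression genes, ETS in lean tumors called 28 by total counts, 10 without a filter, 11 by the exact test and 35 on both TPM scales. The gap called 4, all with the larger effect in lean tumors, against 1 in this direction by total counts and 1 in the opposite direction on both TPM scales, where the median turned from 0.18 to -0.07 and -0.08. The pre-therapy comparison called 5 on both TPM scales, and the comparison after ETS 1 without a filter and by limma-voom and 0 by total counts, on both TPM scales and with only the groups compared. The number of all genes called between hosts after ETS, 904, was 450 without a filter, 2078 by DESeq2, 1571 by the exact test and 69 with only the groups compared. The cause of these changes was not tested.

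With 1 tumor left out, calls ranged for the 63 expression genes from 10 to 19 for ETS in lean tumors, 12 to 19 in obese tumors, 1 to 5 for the gap, 10 to 17 before therapy and 0 to 2 after ETS. For the 78 subunits they ranged from 2 to 17 for ETS in obese tumors, 29 to 58 for the gap and 0 to 1 after ETS. For all genes they ranged from 185 to 1340 after ETS.

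Tumors with the same replicate number did not deviate together (correlations -0.11 to 0.45, median 0.07), so the numbers were not taken as pairs. With the replicate number as a block, 1683 genes, 1 of 78 subunits and 1 of the 10 genes were called between hosts after ETS, and the median of the 10 genes was 1.49 for ETS in lean and 0.84 in obese tumors.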
